A study of Mus musculus with 15 samples.

Results

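Interferon-stimulated genes are the genes that a cell switches on after an interferon has bound to its receptor. The 9 genes described here were Irf7, Dhx58, Isg15, Usp18, Ifit1, Ifit3, Oasl2, Bst2 and Rsad2, measured on Illumina mouse whole-genome bead arrays. They have 16 probes among the 45281 of the array, and a probe counted as measured where at least 2 samples had a detection p, which sets its signal against the negative controls, below 0.01. By that rule 13 probes and 8 of the 9 genes were kept, of 21048 probes and 11648 genes in all. Ifit1, which encodes a protein that binds viral RNA, has 1 probe, whose detection p was never below 0.353, so it was at background in every sample and gives no result. Of several probes of a gene, the brightest on average represents it here.

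RNA came from the lung or kidney of BALB/c mice. The study compared organs with and without fibrosis, and asked what kidney fibrosis does to the lung. The 5 groups were healthy lung (n = 3, no treatment named), fibrotic lung after intratracheal bleomycin (n = 3), lung of mice whose kidney was made fibrotic by unilateral ureteral obstruction (UUO, surgical closure of 1 ureter; n = 3, called UUO-mouse lung), healthy kidney (n = 3) and UUO kidney (n = 2). The 3 healthy kidneys came from the mice of the healthy lungs, and 1 UUO kidney from a mouse of the UUO-mouse lungs. For healthy kidney 1 a tissue field of the labels reads lung, while its title and source name read kidney and were followed. The labels used here give no age, sex, dose or time after injury, and no sham-operated mice are among these samples.

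Viral or displaced self nucleic acids are sensed in the cytoplasm and in endosomes, and the sensors switch on the interferon genes. Type I interferons then act through the kinases JAK1 and TYK2, and a complex of transcription factors binds the interferon-stimulated response element in the promoters of target genes. Among the targets are further sensors and transcription factors, a ubiquitin-like protein with its enzymes, and effectors that block steps of viral growth, as well as inhibitors that shut the response off. In injured kidney and lung the same genes can be switched on without a virus, by nucleic acids of damaged cells.

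The sequence that this complex recognises lies close to the start of several of the genes. RefSeq's promoter table (build GRCm38.p6, from a C57BL/6J mouse, another strain than the one measured) held a window for 7 of the 9 genes, and the 250 bases before the start were searched on both strands for the core of the element, GAAANNGAAA. The core was found in 5 of the 7 (Isg15, Ifit1, Ifit3, Bst2 and Rsad2), against 2.98% of all 32851 windows of that length. The 4 windows below are shown because their genes differ in the results that follow. Isg15 rose in the UUO kidney and its window holds 3 overlapping copies. Bst2, with 2 overlapping copies, and Rsad2, with 1 on the reverse strand, did not pass the test there, and Oasl2 rose there with no copy in its window. Capitals mark the matches, and each sequence runs 5′ to 3′ on the strand of its gene and ends 1 base before the start.
Isg15 (chr4:156200819-156201068, minus strand): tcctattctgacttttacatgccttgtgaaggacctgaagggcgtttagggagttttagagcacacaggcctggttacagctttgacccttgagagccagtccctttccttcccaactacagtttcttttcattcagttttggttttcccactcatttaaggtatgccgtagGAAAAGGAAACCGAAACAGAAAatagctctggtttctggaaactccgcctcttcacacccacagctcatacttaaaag
Oasl2 (chr5:114896684-114896933, plus strand): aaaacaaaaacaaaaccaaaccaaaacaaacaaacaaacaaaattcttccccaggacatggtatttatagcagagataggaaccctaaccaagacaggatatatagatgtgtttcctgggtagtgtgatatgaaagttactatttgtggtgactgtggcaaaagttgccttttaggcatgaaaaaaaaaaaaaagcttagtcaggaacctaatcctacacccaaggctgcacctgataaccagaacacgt
Bst2 (chr8:71537473-71537722, minus strand): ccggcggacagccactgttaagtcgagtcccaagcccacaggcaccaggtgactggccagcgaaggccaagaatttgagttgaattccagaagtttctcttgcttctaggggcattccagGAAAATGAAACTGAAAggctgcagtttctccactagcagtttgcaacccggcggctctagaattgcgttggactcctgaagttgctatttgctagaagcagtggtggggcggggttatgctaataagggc
Rsad2 (chr12:26456453-26456702, minus strand): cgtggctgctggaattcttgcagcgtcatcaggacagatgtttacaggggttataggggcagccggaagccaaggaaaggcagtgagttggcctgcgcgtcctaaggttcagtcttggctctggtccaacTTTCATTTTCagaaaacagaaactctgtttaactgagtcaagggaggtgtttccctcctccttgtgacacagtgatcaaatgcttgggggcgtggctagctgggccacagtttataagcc
The Isg15 copies span the bases from 78 to 57 before the start and those of Bst2 the bases from 130 to 115. The Rsad2 copy begins 120 bases before the start. Ifit3 and Ifit1 share their 2 copies letter for letter, TTTCACTTTC and TTTCAGTTTC on the strand of the gene, 156 and 122 bases before the start in Ifit3 and 104 and 85 in Ifit1. Irf7 has no copy in its window. The start is the one that the promoter table uses. For Ifit3, Irf7 and Oasl2 it lies inside the gene's RefSeq span, whose outer end is further upstream. The Ifit3 window, chr19:34583279-34583528, lies wholly within that span, which begins at 34583119 on the plus strand. A match is a run of letters and not a measured binding site, and no match says only that these letters are not in this window.

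**Figure D1:**
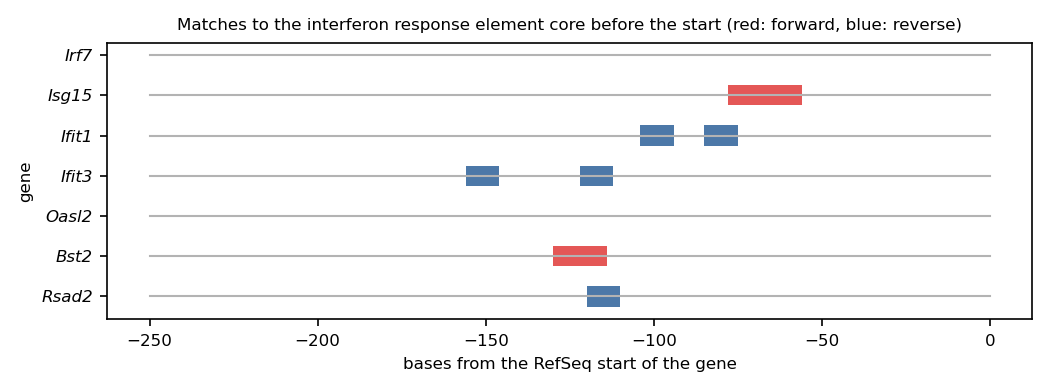
Position of each match to the core GAAANNGAAA in the 250 bases before the RefSeq start of 7 genes (horizontal axis, bases from the start; red, on the strand of the gene; blue, on the other strand). All matches lie between 156 and 57 bases before the start, and the lines of Irf7 and Oasl2 are empty. The start is that of RefSeq's promoter table, which for Ifit3, Irf7 and Oasl2 lies inside the gene's span.

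Between 32.4% and 41.5% of the probes stood above background on an array, and precision is limited by how few arrays there are. All 9 lungs had 8 of 8 lung epithelial markers above background, and all 5 kidneys 10 of 10 tubule markers. Some samples also held transcripts of another organ. Healthy lung 3 and UUO-mouse lung 1 had all 8 kept liver markers above background, with median log2 levels of 12.98 and 11.21 (bleomycin lung 3 had 7 of 8, with a median of 4.98), and bleomycin lung 1 had 8 of 10 kidney tubule markers above background, against 4 to 6 in the other lungs. Of the 8 liver markers, healthy kidneys 1, 2 and 3 had 7, 6 and 6 above background, with medians of 7.78, 7.19 and 6.73. UUO kidneys 1 and 2 had 4 and 3, with medians of 5.13 and 4.83, and the part of this difference in the results was not tested. Both UUO kidneys held lung epithelial transcripts, at 6.89% and 3.27% of the summed level of the UUO-mouse lungs, against 0.202% to 0.245% in healthy kidneys. All UUO mice had Xist, an RNA of female cells, at log2 levels of 10.44 to 11.70 with the Y-linked Eif2s3y at background, and all healthy mice had Xist at background and Eif2s3y at 8.94 to 9.64. Sex and UUO therefore cannot be told apart in any comparison with UUO mice. Among bleomycin lungs the third carried Xist (8.91) without Eif2s3y, and the others carried Eif2s3y (9.66 and 9.65).

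In the UUO kidney the interferon-stimulated genes were higher. Of the 8 genes, 6 rose against healthy kidney and none fell, in limma's test with Benjamini-Hochberg adjustment over all 11648 genes at 0.05. Of all genes 43.0% passed in this comparison, 26.0% upward and 16.9% downward. The samples of the 2 groups did not overlap, with UUO kidney above, in 7 of the 8 genes and in 37.6% of all genes. The members' median log2 change was 1.98, against 0.12 for all genes. The 6 that rose were Irf7, Dhx58, Isg15, Usp18, Ifit3 and Oasl2, by 2.01-fold (Ifit3) to 5.37-fold (Usp18) or, from a kidney at background, by at least 2.99-fold (Dhx58) and at least 4.03-fold (Irf7). In whole organs, more cells of a type and more RNA per cell cannot be told apart.

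Irf7 encodes the transcription factor that switches on the interferon-alpha genes. Its log2 levels were 4.74, 4.57 and 4.71 in the 3 healthy kidneys, all at background, and 7.29 and 7.23 in the 2 UUO kidneys. Both UUO kidneys were clear of every healthy kidney, and also above every lung, the highest of which read 6.64. The measured means were 7.26 ± 0.04 (SD, n = 2) and 4.67 ± 0.09 (n = 3), which gives Irf7 at least 4.03-fold more in UUO kidney (adjusted p = 1.38e-06). Here "at least" sets the bright group against the lowest signal that counted as above background on the dim arrays.

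Dhx58 encodes LGP2, a cytoplasmic RNA sensor that tunes the signalling of the sensors RIG-I and MDA5. It read 4.81, 4.599 and 4.84 in the healthy kidneys, again at background, and 6.77 and 6.89 in the UUO kidneys. The 2 groups did not overlap, and the UUO kidneys lay within the range of the lungs (6.40 to 6.94). Dhx58 was at least 2.99-fold higher in UUO kidney (measured means 6.83 ± 0.08 and 4.75 ± 0.13, adjusted p = 1.83e-06). Its 2 other kept probes also rose, by at least 2.26-fold and at least 1.22-fold (limma, adjusted p over all kept probes = 9.8e-05 and 0.0021, where 43.6% of all probes passed).

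Isg15 encodes a ubiquitin-like protein that is attached to other proteins. It read 5.74, 4.87 and 6.25 in healthy kidneys, with the second at background, and 7.30 and 7.86 in UUO kidneys. The healthy kidneys were spread widely, but none reached a UUO kidney, and the log2 change was 1.96 ± 0.40 (SE; 3.89-fold, adjusted p = 0.002). Usp18, the protease that removes ISG15 from its targets and also silences the interferon receptor, read 6.03, 5.60 and 7.32 in healthy kidneys and 8.43 and 9.05 in UUO kidneys. Healthy kidney 3 was the highest healthy kidney in both genes and still lay below the UUO kidneys. The change of Usp18 was 2.43 ± 0.42 (5.37-fold, adjusted p = 0.000639), while its second kept probe gave 0.45 ± 0.26 and did not pass (adjusted p = 0.189 in limma over probes).

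Among the effectors, Ifit3, a partner of the RNA-binding IFIT proteins, read 7.80, 7.74 and 8.40 in healthy kidneys and 9.02 and 8.97 in UUO kidneys. The groups did not overlap, and the change was the smallest of the 6 at 1.01 ± 0.31 (2.01-fold, adjusted p = 0.0189). Leaving out healthy kidney 1 or 2 or either UUO kidney ended its call at changes of 0.91, 0.88, 0.98 and 1.03 (adjusted p = 0.0586, 0.0618, 0.0725 and 0.0733), as did the authors' matrix (0.80, 0.0501), array weights (1.05, 0.0504) and the mean of its probes (0.36, 0.435), and its second probe gave -0.29 (0.671). Oasl2, which belongs to the oligoadenylate synthetase family, read 6.74, 6.86 and 7.36 in healthy kidneys and 9.09 and 8.88 in UUO kidneys. All its healthy kidneys lay well below the UUO kidneys, with a change of 2.00 ± 0.36 (adjusted p = 0.000905), and its second kept probe rose as well (at least 1.30-fold, from background, adjusted p = 0.00626 in limma over probes).

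Neither of the last pair passed. Bst2, or tetherin, holds budding virus particles at the cell surface, and in mice also marks plasmacytoid dendritic cells. It read 6.46, 6.02 and 5.96 in healthy kidneys and 7.64 and 6.87 in UUO kidneys, so that the groups did not overlap, with a change of 1.11 ± 0.44 (adjusted p = 0.0593). Bst2 did pass in 3 of 21 other settings. These were median scaling, a fit of only the groups compared, and leaving out healthy lung 3 and UUO-mouse lung 1 together. Rsad2, or viperin, makes a nucleotide that stops viral RNA synthesis. It read 9.07, 8.88 and 9.02 in healthy kidneys and 8.98 and 10.01 in UUO kidneys. Only UUO kidney 2 stood above the healthy kidneys, and the change was 0.51 ± 0.50 (adjusted p = 0.452). A p that misses the threshold does not show that the levels were alike.

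**Figure D2:**
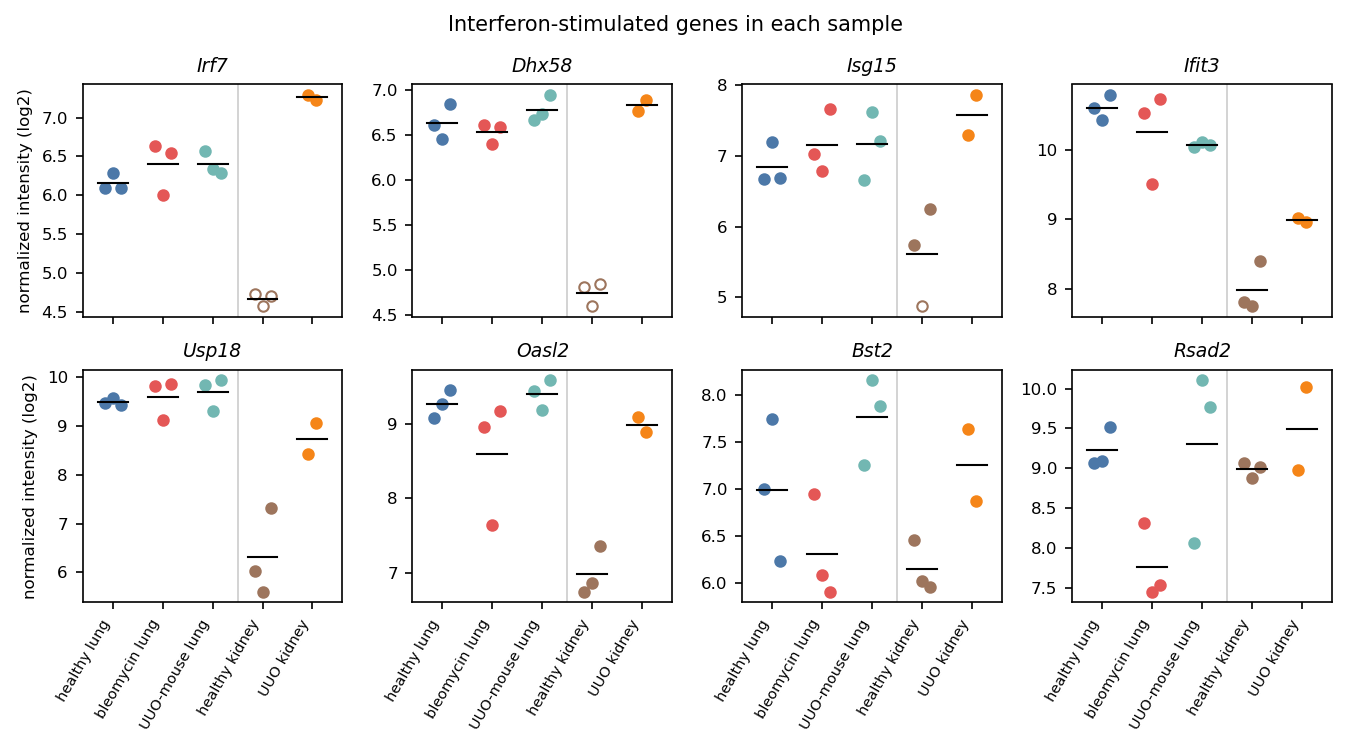
Normalized log2 intensity (vertical axis, its own range in each panel) of 8 interferon-stimulated genes in each of 14 samples, by group (horizontal axis), with lungs left and kidneys right of the grey line. Each point is a sample, open where its probe was at background, and each bar is the group mean; Irf7 lies between 7.23 and 7.29 in UUO kidneys and between 4.57 and 4.74 in healthy kidneys.

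Other measures moved in the same kidneys. Of 10 macrophage and monocyte markers 7 rose and 1 fell, and their summed normalized intensity was 21834 to 22851 in UUO kidneys against 2929 to 3913 in healthy kidneys, with Itgam at background in both groups. Siglech, the defining marker of plasmacytoid dendritic cells in the list, was at background in healthy kidneys and at log2 levels of 7.10 and 6.18 in UUO kidneys, and 2 of 6 markers of that list rose. Of the 4 natural killer markers tested 3 rose, of the 5 T cell markers 2, and of the 3 B cell markers 0, where the array held 8, 9 and 6. The summed T cell intensity was 4083 to 4742 in UUO kidneys against 4590 to 5256 in healthy kidneys. The natural killer sum was 875 to 964 against 564 to 685, and the B cell sum 114 to 128 against 89.3 to 123. The part of these cells in the rise of the interferon-stimulated genes was not tested. Lung epithelial transcripts were in both UUO kidneys, as given above, and their part was not tested. With either UUO kidney left out 5 of the 8 genes rose, where the remaining kidney is assumed to vary like the samples of the other groups.

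The wider pathway was read from 10 lists of 162 genes outside these 9, of which 151 were on the array and 111 were tested. In the UUO kidney 63 of the 111 rose (56.8%, against 26.0% of all genes) and 4 fell. Median scaling of the arrays gave 78 and 1, and the authors' matrix values 46 and 12. Among the sensors and their adaptors 5 of 12 rose and 0 fell. Cgas, the sensor of cytoplasmic DNA, rose by 2.41 ± 0.26 (5.33-fold, adjusted p = 2.51e-05), and Tlr7, the endosomal receptor of single-stranded RNA, by 1.61 ± 0.28 (3.06-fold, adjusted p = 0.000706). Only 1 of 3 healthy kidneys had Cgas above background and 2 of 3 had Tlr7, so these folds start near background. Of 18 interferon genes on the array only 3 had a kept probe. Of the 3 tested only Ifna6 passed, and it fell, with a log2 change of -0.99 ± 0.18 (adjusted p = 0.000792).

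Receptors and signalling followed with 6 of 10 higher and 0 lower. Both chains of the interferon-gamma receptor rose, Ifngr1 by 1.46 ± 0.25 and Ifngr2 by 1.73 ± 0.22 (adjusted p = 0.000622 and 8.17e-05). Of the other interferon regulatory factors 6 of 8 rose, with Irf1 at 1.38 ± 0.20 and Irf8 at 1.70 ± 0.28 (adjusted p = 0.000198 and 0.000498). The inhibitors divided, with 3 of 13 higher and 1 lower. Socs3, which blocks JAK kinases and also answers to interleukin signals, had the highest change of the 111 genes at 5.30 ± 0.50 (39.4-fold, adjusted p = 1.02e-05), Ptpn11 rose by 0.50 ± 0.16 (adjusted p = 0.0283) and Pias2 fell by 0.64 (SE 0.14, adjusted p = 0.00318). Socs3 was above background in 2 of 3 healthy kidneys, so its fold also starts near background. Ptpn11 gave -0.0297 as the mean of its probes and 0.0501 in the authors' matrix, and did not pass in either.

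Of the 18 antiviral effectors outside the 9 genes 13 rose and 0 fell. Ifitm3, which blocks viral entry at membranes, rose by 1.89 ± 0.20 (3.70-fold, adjusted p = 2.09e-05), and Mx2, a dynamin-like GTPase, was at least 2.18-fold higher (adjusted p = 6.73e-05), since its probe was at background in all healthy kidneys. Of 18 other targets of type I interferon 12 rose and 1 fell. The secreted glycoprotein Lgals3bp rose by 2.05 ± 0.18 (adjusted p = 6.13e-06), Rtp4 was at least 1.44-fold higher (adjusted p = 1.93e-05), and Parp10 fell by 0.51 (SE 0.19, adjusted p = 0.0456). Of the 3 enzymes of ISG15 conjugation only Uba7, the activating enzyme, passed, with a rise of 1.78 ± 0.25 (adjusted p = 0.000141).

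Genes best known as targets of interferon-gamma rose too. Of 8 interferon-gamma-induced GTPases 6 rose and 0 fell, among them Gbp2b at 2.52 ± 0.22 (5.75-fold, adjusted p = 5.43e-06) and Gbp2 at 2.17 ± 0.22 (4.50-fold, adjusted p = 1.5e-05). Of 18 chemokine and antigen-processing genes 11 rose and 1 fell. The immunoproteasome subunit Psmb10 rose by 1.82 ± 0.16 (adjusted p = 6.55e-06) and the proteasome activator Psme1 by 1.17 ± 0.12 (adjusted p = 1.92e-05), and its partner Psme2 fell by 0.56 (SE 0.21, adjusted p = 0.0468).

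**Figure D3:**
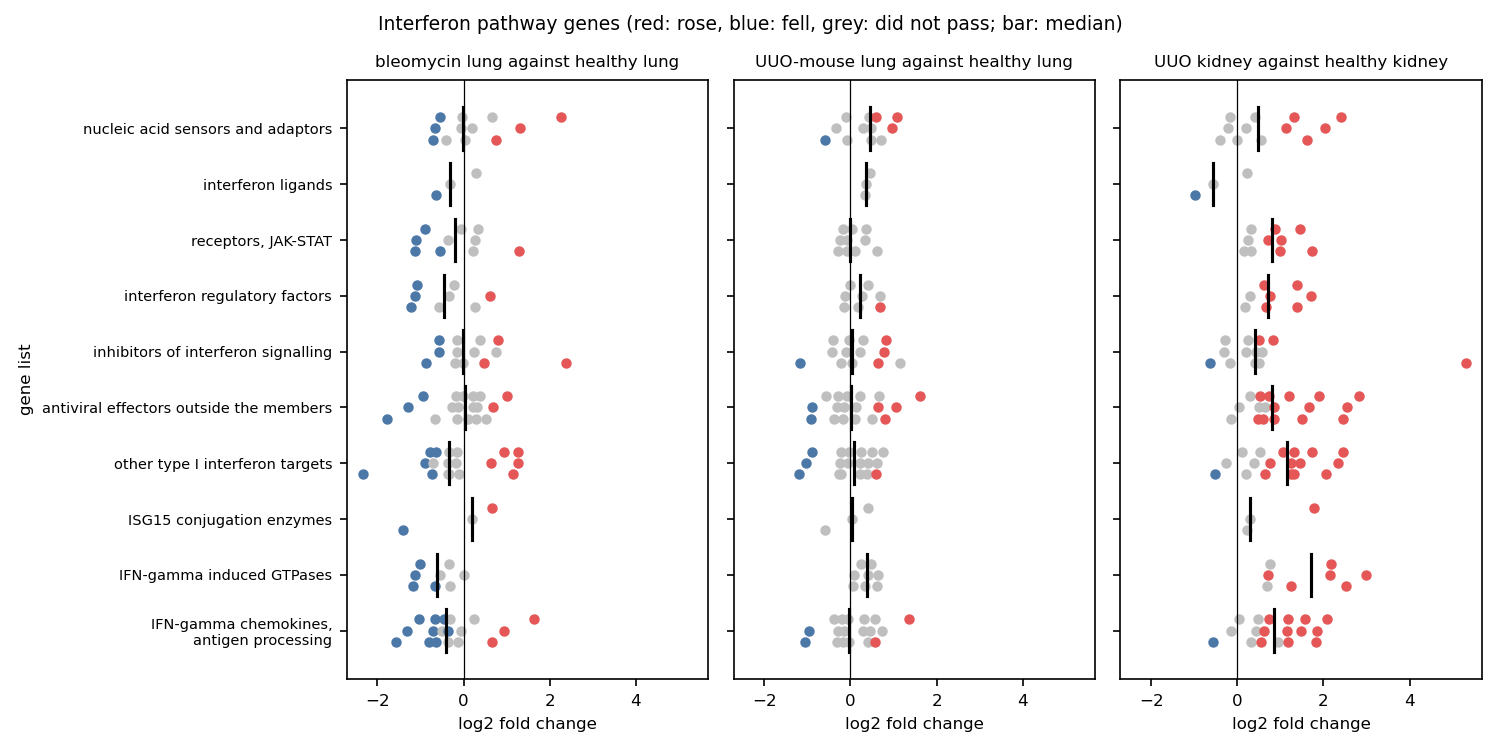
Log2 fold change (horizontal axis) of 111 genes in 10 lists of the interferon pathway (vertical axis) in 3 comparisons; each point is a gene, red where it rose and blue where it fell at an adjusted p under 0.05, and each black bar is the list's median. In the UUO kidney 63 points are red and 4 blue, against 19 and 36 in bleomycin lung and 14 and 9 in UUO-mouse lung.

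In the lung fibrotic after bleomycin 0 of the 8 genes passed upward and 1 fell, Rsad2, while 43.1% of all genes passed, 21.3% upward and 21.8% downward. The members' median change was -0.23, against -0.04 for all genes. Rsad2 read 9.07, 9.10 and 9.51 in healthy lungs and 8.32, 7.46 and 7.54 in bleomycin lungs. Every bleomycin lung lay below every healthy lung, as in 28.8% of all genes, and the change was -1.45 ± 0.45 (2.74-fold lower, adjusted p = 0.0207). The call was lost without healthy lung 3, which held liver transcripts (-1.31, adjusted p = 0.0566), without bleomycin lung 2 (-1.30, 0.0749) and without bleomycin lung 3 (-1.34, 0.0637), and also with the scalings described further on.

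The other 7 genes overlapped between these groups. Irf7 read 6.09, 6.29 and 6.09 in healthy lungs and 6.64, 6.01 and 6.55 in bleomycin lungs, with a change of 0.24 ± 0.16 (adjusted p = 0.253). Dhx58 read 6.61, 6.45 and 6.85 against 6.61, 6.40 and 6.59 (-0.10 ± 0.14, adjusted p = 0.577), so the 2 groups covered nearly the same range. Isg15 read 6.67, 7.19 and 6.68 in healthy and 7.03, 6.79 and 7.67 in bleomycin lungs (0.31 ± 0.36, adjusted p = 0.509). Usp18 read 9.48, 9.58 and 9.43 and then 9.83, 9.12 and 9.86 (0.11 ± 0.37, adjusted p = 0.836). In Irf7 and Usp18 bleomycin lungs 1 and 3 lay above all healthy lungs and bleomycin lung 2 below them all. Without bleomycin lung 2, Irf7 was the single gene that passed, upward, at 0.43 (adjusted p = 0.026), and none fell.

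Bleomycin lung 2 was also the lowest lung of its group in Ifit3 and Oasl2. Ifit3 read 10.61, 10.43 and 10.79 in healthy lungs and 10.54, 9.51 and 10.73 in bleomycin lungs (-0.35 ± 0.27, adjusted p = 0.321). Oasl2 read 9.08, 9.27 and 9.45 in healthy lungs and 8.96, 7.65 and 9.17 in bleomycin lungs (-0.67 ± 0.33, adjusted p = 0.116). Bst2 read 7.0035, 7.74 and 6.23 in healthy and 6.95, 6.09 and 5.91 in bleomycin lungs (-0.68 ± 0.39, adjusted p = 0.184). With healthy lung 3 and UUO-mouse lung 1 left out together, Bst2 passed as well (-1.07, adjusted p = 0.0305), and 2 of the 8 genes fell.

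These lung values depend on how the arrays are put on 1 scale. The median change of all genes in bleomycin lung was -0.04 after quantile normalization, 0.23 after median scaling and 0.51 in the authors' matrix, and the share of calls that were upward went from 49.5% to 75.1% and 87.1%. With the matrix values 3 of the 8 genes rose (Irf7, Dhx58 and Isg15) and none fell. Relative to the median of all genes Rsad2 stood at -1.41, -1.30 and -1.38 on the 3 scales, and the highest of the 8 genes at 0.36, 0.38 and 0.40. In the UUO kidney the median of all genes was 0.12, 0.33 and -0.21 on the same scales, with 60.6%, 78% and 34.6% of calls upward, and all 8 genes lay above it on each.

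Around the 8 genes the lists split in bleomycin lung, with 19 of 111 higher and 36 lower (17.1% and 32.4%, where 21.3% and 21.8% of all genes were). The matrix values gave 46 and 10. Tlr7 rose by 2.26 ± 0.25 (4.78-fold, adjusted p = 5.11e-05), Sting1, the adaptor of the DNA sensor, by 1.31 ± 0.32 (adjusted p = 0.00613) and Socs3 by 2.38 ± 0.45 (adjusted p = 0.00131). Mavs, the mitochondrial adaptor of the RNA sensors, fell by 0.71 (SE 0.13, adjusted p = 0.000993), and Irf3 by 0.55 (SE 0.17, adjusted p = 0.0222). The only interferon gene to pass was again Ifna6, which fell by 0.64 (SE 0.16, adjusted p = 0.00605). Of the signalling genes 1 of 10 rose, Jak2 by 1.28 ± 0.24 (adjusted p = 0.00124), and 4 fell, among them Jak1 by 1.13 (SE 0.21, adjusted p = 0.00113) and Ifngr2 by 1.11 (SE 0.20, adjusted p = 0.000925).

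Of 8 interferon regulatory factors 1 rose, Irf5 by 0.62 ± 0.15 (adjusted p = 0.00642), and 3 fell, with Irf1 at -1.08 ± 0.18 and Irf2bp1 at -1.12 ± 0.15 (adjusted p = 0.000575 and 0.000162). Antiviral effectors gave 2 of 18 higher and 3 lower. The membrane proteins Ifitm2 and Ifitm1 rose by 1.02 ± 0.19 and 0.68 ± 0.22 (adjusted p = 0.00105 and 0.0238), and Zc3hav1, which targets viral RNA for decay, and Trim56 fell by 1.30 and 1.78 (SE 0.13 and 0.19, adjusted p = 3.2e-05 and 3.48e-05). Other type I targets gave 5 of 18 each way, Lgals3bp at 1.25 ± 0.16 (adjusted p = 0.000119) and Tor3a at least 1.48-fold higher (adjusted p = 0.00014), Sp100, a nuclear body protein, at -2.33 ± 0.18 and Ly6e at -0.90 ± 0.15 (adjusted p = 6.48e-06 and 0.000625). Among inhibitors 3 of 13 rose and 3 fell, with Pias2 at 0.47 ± 0.13, Pias4 at -0.58 ± 0.16 and Trim21 at -0.57 ± 0.17 (adjusted p = 0.00982, 0.0134 and 0.0175). Of the ISG15 enzymes Uba7 fell by 1.40 (SE 0.22, adjusted p = 0.000409) and Ube2e2 rose by 0.67 ± 0.14 (adjusted p = 0.00248).

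Of the interferon-gamma-induced GTPases 4 of 8 fell and 0 rose, among them Irgm2 and Igtp by 1.12 and 1.16 (SE 0.26 and 0.29, adjusted p = 0.00477 and 0.00641). Chemokine and antigen-processing genes gave 3 of 18 higher and 9 lower. The chemokine Cxcl10 rose by 1.63 ± 0.33 (3.09-fold, adjusted p = 0.00191) and Psme2 by 0.93 ± 0.19 (adjusted p = 0.00189), and the peptide transporter Tap2 and the class I molecule H2-K1 fell by 1.32 and 1.03 (SE 0.19 and 0.18, adjusted p = 0.00022 and 0.000886). Cxcl10 was above background in only 1 of 3 healthy lungs. In these lungs 6 of 10 macrophage markers rose, and all 4 natural killer and all 3 B cell markers tested fell, as did 4 of 5 T cell markers. Siglech read 7.44, 6.77 and 6.58 in healthy lungs and 4.55, 4.49 and 4.85 in bleomycin lungs, with the first 2 of the latter at background. The part of these cells in the levels of the 8 genes was not tested. As means of their probes Ifngr2 (0.36) and Pias4 (0.0149) turned upward and did not pass, and so did Irf3 in the matrix (0.0189).

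In the lungs of UUO mice, set against healthy lungs, 0 of the 8 genes passed, and 0 had an unadjusted p under 0.05 in limma, with 10.9% of all genes passing, 5.81% upward and 5.05% downward. The members' median change was 0.17, against 0.05 for all genes. Irf7 read 6.57, 6.33 and 6.29 in UUO-mouse lungs, just above the healthy lungs (0.24 ± 0.16, adjusted p = 0.359). Ifit3 read 10.05, 10.12 and 10.07, below the healthy lungs (-0.53 ± 0.27, adjusted p = 0.228). These were the 2 genes whose groups did not overlap, 1 upward and 1 downward, where 20.9% and 14.8% of all genes did so.

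The other 6 overlapped. Dhx58 read 6.66, 6.73 and 6.94, Isg15 6.66, 7.63 and 7.22, Usp18 9.84, 9.32 and 9.94, and Oasl2 9.44, 9.18 and 9.58, with changes between 0.13 ± 0.33 and 0.32 ± 0.36 and adjusted p from 0.54 to 0.832. Bst2 read 7.25, 8.15 and 7.88 and had the highest positive change (0.77 ± 0.39, adjusted p = 0.223). Rsad2 read 8.06, 10.10 and 9.76, a wider spread than in the other groups (0.08 ± 0.45, adjusted p = 0.931). UUO-mouse lung 2 was hybridised on 2 arrays, which were averaged, and these differed by 0.0036 for Irf7 and by 0.64 for Bst2 and for Rsad2. The median of all genes was 0.05, -0.25 and -0.11 on the 3 scales named above, with 53.5%, 3.29% and 15.9% of calls upward, and on none of them did any of the 8 genes pass.

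Of the 111 list genes 14 rose and 9 fell in UUO-mouse lung (12.6% and 8.11%, where 5.81% and 5.05% of all genes did), and 5 and 3 without healthy lung 3 and UUO-mouse lung 1. These counts depended on the processing, and over all other settings ran from 1 to 30 higher and from 3 to 14 lower. Tlr7 and the kinase Tbk1 rose by 1.08 ± 0.25 and 0.59 ± 0.12 (adjusted p = 0.022 and 0.0131) and Mavs fell by 0.60 (SE 0.13, adjusted p = 0.0152), in a list with 3 of 12 higher and 1 lower. Effectors gave 4 of 18 higher and 2 lower, with Mx2 at 0.81 ± 0.19 and Trim25 at 0.63 ± 0.14 upward, Ifit2 at -0.92 ± 0.17 and Ifitm1 at -0.89 ± 0.22 (adjusted p = 0.0203, 0.0183, 0.00907 and 0.0272). Ifitm1 gave 0.29 as the mean of its probes. Among other type I targets Epsti1 was the 1 of 18 that rose (0.59 ± 0.14, adjusted p = 0.0263) and 3 fell, Ly6e by 1.03 and Lgals3bp by 0.89 (SE 0.15 and 0.16, adjusted p = 0.00384 and 0.00853). Nlrc5, the activator of class I genes, rose by 1.36 ± 0.22 and Psmb10 by 0.58 ± 0.15, while H2-D1 and Psmb8 fell by 1.06 and 0.97 (adjusted p = 0.00563, 0.0293, 0.00755 and 0.0272), which made 2 of 18 higher and 2 lower. Irf5 was the 1 of 8 regulatory factors that rose (0.68 ± 0.15, adjusted p = 0.0182). Inhibitors gave 3 of 13 higher and 1 lower, with Pias2 at 0.63 ± 0.13 and Ptpn6 at 0.79 ± 0.17 upward and Pias4 at -1.18 ± 0.16 (adjusted p = 0.0122, 0.0177 and 0.00282).

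The remaining lists had no call in UUO-mouse lung. The smallest adjusted p were those of Ifna6 among 3 interferon genes (0.46 ± 0.16, adjusted p = 0.0804), Stat2 among 10 signalling genes (0.62 ± 0.24, adjusted p = 0.112), Irgm2 among 8 GTPases (0.63 ± 0.26, adjusted p = 0.144) and Uba7 among 3 ISG15 enzymes (0.41 ± 0.22, adjusted p = 0.249). Siglech read 7.83, 7.81 and 7.91 there, above every healthy lung. Of the 6 plasmacytoid dendritic markers tested, though, only 1 rose and 0 fell, with a median change of -0.08. Natural killer markers gave 3 of 4 higher, macrophage and monocyte markers 3 of 10 higher and 1 lower, T cell markers 1 of 5 higher and B cell markers 0 of 3. The part of such cells in these values was not tested.

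The healthy organs themselves differed. Against healthy lung, 6 of the 8 genes were lower in healthy kidney and none higher, where 66.6% of all genes passed, 36.9% lower and 29.8% higher. The members' median was -1.68, against -0.14 for all genes. Usp18 was 9.06-fold lower (-3.18 ± 0.37, adjusted p = 1.01e-05), Ifit3 6.19-fold (-2.63 ± 0.27, adjusted p = 3.51e-06), Oasl2 4.84-fold (-2.28 ± 0.33, adjusted p = 5.25e-05) and Isg15 2.35-fold (-1.23 ± 0.36, adjusted p = 0.0093). Dhx58 was at least 2.62-fold and Irf7 at least 1.88-fold lower (adjusted p = 1.61e-07 and 5.47e-06), with the kidney at background. Every healthy kidney lay below every healthy lung in these 6 genes, as in 40.8% of all genes, and Bst2 (-0.85 ± 0.39, adjusted p = 0.074) and Rsad2 (-0.24 ± 0.45, adjusted p = 0.659) overlapped. With the mouse as a block, which these paired organs allow, Bst2 passed too (adjusted p = 0.0334).

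The pathway lists were lower in kidney as well, with 84 of 111 lower and 9 higher (75.7% and 8.11%, where 36.9% and 29.8% of all genes were). All 8 interferon-gamma-induced GTPases were lower, with Gbp2 at -2.72 ± 0.20 and Gbp2b at -2.58 ± 0.20 (adjusted p = 1.32e-07 and 2.21e-07). Of the signalling genes 9 of 10 were lower, with Jak1 at -4.37 ± 0.21 and the interferon-lambda receptor Ifnlr1 at -1.45 ± 0.17 (adjusted p = 4.19e-09 and 7.43e-06). Effectors gave 14 of 18 lower and 0 higher, with the nucleotide hydrolase Samhd1 at -3.14 ± 0.16 and Ifitm3 at -2.77 ± 0.18 (adjusted p = 8.1e-09 and 5.49e-08). Sensors were mixed, with 3 of 12 higher and 6 lower. Mavs and Ticam1 were higher by 0.91 ± 0.13 and 0.73 ± 0.14 (adjusted p = 4.75e-05 and 0.000738), and Cgas and Myd88 lower, at -2.36 ± 0.24 and -1.20 ± 0.30 (adjusted p = 2.38e-06 and 0.00325). Cgas was above background in only 1 of 3 healthy kidneys. Healthy lungs carried 49711 to 53148 units of summed macrophage marker intensity against 2929 to 3913 in healthy kidneys, and its part in these differences was not tested.

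Over the 5 groups the order of the mean levels differed between genes. Irf7 was highest in UUO kidney, then in UUO-mouse, bleomycin and healthy lung, each overlapping its neighbour in the order, and lowest in healthy kidney, with both ends clear of their neighbours. For Dhx58 and Isg15 the UUO kidney overlapped the lungs, and healthy kidney alone stood apart below. For Ifit3 and Usp18 the lung groups were at the top, each overlapping its neighbour in the order, although the Ifit3 levels of UUO-mouse lung lay wholly below those of healthy lung. The UUO kidney lay 1.09 and 0.75 below the lowest of them in mean, and healthy kidney was lowest, both steps without overlap. Their second probes gave other orders. For Ifit3 that probe had UUO-mouse lung lowest in mean (5.58), overlapping UUO kidney (5.61) and healthy kidney (5.90). For Usp18 it kept the lung groups apart, bleomycin lung above healthy lung and UUO-mouse lung below (means 7.27, 6.21 and 5.40). For Oasl2 the UUO kidney lay among the lungs and healthy kidney below. For Bst2 no neighbouring groups were separate. Rsad2 had another order, with bleomycin lung alone at the bottom, 1.22 below healthy kidney.

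The effect of UUO in the kidney was then set against the other effects within the same fit. The bleomycin effect in lung was lower than the UUO effect in kidney in 8 of 8 genes (differences of -1.36 ± 0.41 to -2.67 ± 0.49, adjusted p from 1.42e-05 to 0.0326), where 45.0% of all genes passed and 27.1% were lower. With the matrix values 4 of the 8 passed, and 5 without bleomycin lung 2 or without healthy kidney 2. Rsad2, Bst2 and Isg15 lost this call in 11, 8 and 6 of 27 other settings, and the second probes of Ifit3 and Usp18 had the opposite sign. The UUO effect in kidney exceeded that in the lung of UUO mice in 6 of 8, all but Bst2 and Rsad2 (1.54 ± 0.41 to 2.34 ± 0.24 for those that passed, adjusted p from 5.66e-05 to 0.04), where 27.6% of all genes passed and 16.6% were higher. The Isg15 difference (adjusted p = 0.04) lost its call in 11 of 27 other settings, with adjusted p up to 0.152, and 4 genes passed without UUO kidney 2. In this kidney against lung difference the second probes of Ifit3 and Oasl2 kept the sign and did not pass. Both differences rest on the same healthy and UUO kidneys.

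**Figure D4:**
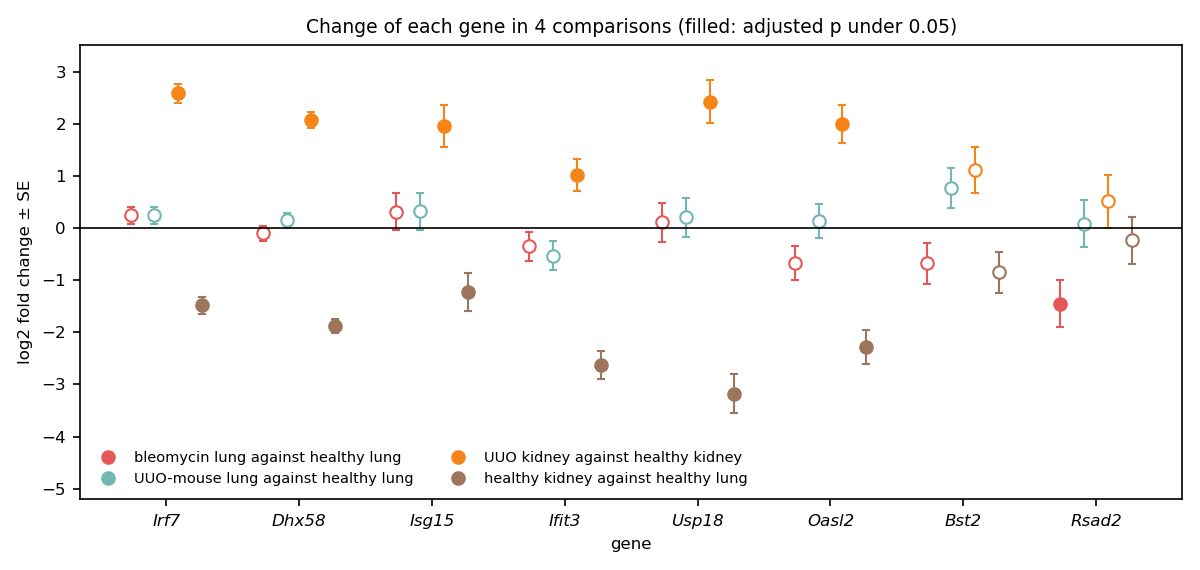
Log2 fold change (vertical axis, bars ± SE) of 8 interferon-stimulated genes (horizontal axis) in 4 comparisons, filled where the adjusted p is under 0.05. The changes in UUO kidney run from 0.51 to 2.58 and those between healthy kidney and healthy lung from -3.18 to -0.24, while those of bleomycin and UUO-mouse lung lie between -1.45 and 0.77.

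Probes of the same gene did not always move together. Usp18 has a second kept probe, which rose in bleomycin lung (1.06 ± 0.23, adjusted p = 0.00301 in limma over probes, where 44.4% of probes passed) and fell in UUO-mouse lung (-0.81 ± 0.23, adjusted p = 0.0416, where 12.0% passed), while the first probe passed in neither. The second probe of Ifit3 gave 0.77 ± 0.43 in bleomycin lung, -1.37 ± 0.43 in UUO-mouse lung and -0.29 ± 0.48 in UUO kidney, and passed in none (adjusted p = 0.161, 0.0543 and 0.671). In bleomycin and UUO-mouse lung the second probes of Usp18 and Ifit3 thus had the same signs as each other. Ifit3 has a close copy, Ifit3b, on the same chromosome, and probe sequences were not used here, so its signal may hold both genes. For Dhx58 and Oasl2 the kept probes had 1 direction in UUO kidney.

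**Figure D5:**
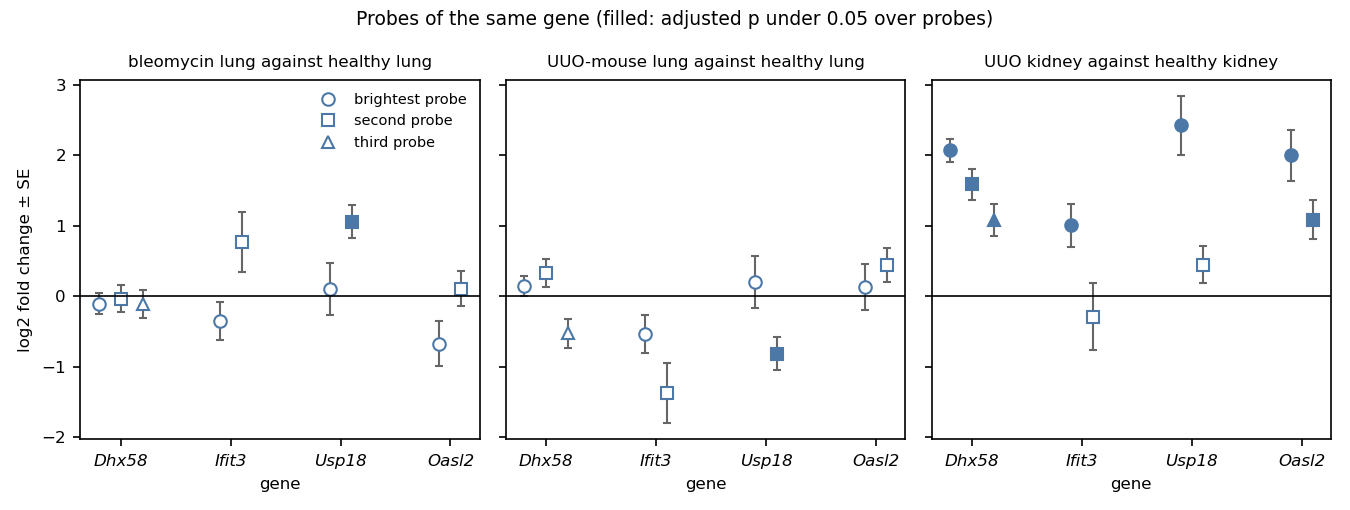
Log2 fold change (vertical axis, bars ± SE) of each kept probe of the 4 genes with several (horizontal axis) in 3 comparisons, filled where the adjusted p over all kept probes is under 0.05. In bleomycin lung the 2 Usp18 probes gave 0.11 and 1.06 and the 2 Ifit3 probes -0.35 and 0.77.

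Within the groups the genes varied together to some extent. Over the 28 pairs of the 8 genes, Pearson's r of the deviations from the group mean had a median of 0.37 and ran from -0.29 to 0.93 over 14 samples, with 23 pairs above 0. The closest pair was Ifit3 and Oasl2 (0.93). Bleomycin lung 2 and healthy kidney 2 lay below their group mean in 8 of 8 genes, by 0.45 and 0.29 on average, and bleomycin lung 1 and healthy kidney 3 above it in 7 of 8. The samples share 4 mice and 1 normalization, and r is a description only. Of 11640 other genes those whose deviations were most like the mean of the 8 were Abcf3 (r = 0.94), Arrb1 (0.93), Herc2 (0.90), Ube2n (0.89) and Rgs4 (0.88), none of them in the 10 lists.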

How the data were processed

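The 15 arrays held 14 samples in 5 groups. The deposited table gives each probe's intensity and its detection p-value per array, per the file headers, and the submitters' processing notes name GenomeStudio 5.0. The authors' deposited matrix, an alternative here, holds background-subtracted intensity values, used with a floor of 16. How it was scaled could not be read from the labels.

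With limma 3.58.1 in R 4.3.3, neqc corrected the background, added an offset of 16 and quantile-normalized the arrays. The repeat arrays of UUO-mouse lung 2 were averaged on the log2 scale. Of the probes 34885 had 1 gene symbol, 18 several and 10378 none. A model of 5 group means was fitted to all 11648 genes with eBayes, leaving 9 residual degrees of freedom beside a prior of 3.06. Benjamini-Hochberg adjustment covered all genes, and 0.05 was the threshold. A gene was called at background in a group where no sample had a detection p below 0.05. Mouse codes in the labels show separate mice within a group and tie organs of 1 mouse, and deviations of such pairs (4) correlated at -0.12 to 0.19. The procedure was tested on simulated data.

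Text names cover the 9 members and, for each list in each comparison, at most 2 rising and 2 falling genes by smallest adjusted p (without a call, the single smallest). Members and lists were chosen with earlier results of these data known. Alternatives changed background correction, scaling, filter, probe choice, weights, blocks, samples and variance trend.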

Additional observations from a re-analysis of the deposited data

Results flagged for a closer look

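The change with bleomycin in lung differed from the change with UUO in kidney in all 8 genes by a test of the difference itself, a contrast within the limma fit. The difference, bleomycin minus UUO, was -2.34 for Irf7, -2.18 for Dhx58, -1.65 for Isg15 and -1.36 for Ifit3 on the log2 scale. It was -2.32 for Usp18, -2.67 for Oasl2, -1.79 for Bst2 and -1.96 for Rsad2. Not all of these calls were firm. Of 27 other settings Rsad2 lost its call in 11, Bst2 in 8 and Isg15 in 6. The second probes of Ifit3 and Usp18 gave 1.06 and 0.61 and did not pass, and as means of their probes neither gene passed.

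The change with UUO in kidney also differed from the change in the lungs of UUO mice, tested in the same way, in 6 of the 8. The difference, kidney minus lung, was 2.34 for Irf7, 1.93 for Dhx58, 1.64 for Isg15, 1.54 for Ifit3, 2.22 for Usp18 and 1.87 for Oasl2. Here too not all calls were firm. Isg15 lost its call in 11 of 27 other settings. The second probes of Ifit3 and Oasl2 gave 1.08 and 0.64 and did not pass, while the other kept probes of Dhx58 and Usp18 passed. As the mean of its probes Ifit3 did not pass.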

How the results depend on the processing

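Over 33 settings the members' 6 sets of changes gave 1158 alternative values, of which 1046 kept direction and side of the threshold, 57 lost a call, 16 gained one and 39 turned sign, 3 of these in a change that had passed. The causes were not tested. With each array scaled to its median, bleomycin lung had 0 genes lower, Dhx58 at 0.20 and Ifit3 at 0.0102, and UUO-mouse lung gave -0.15 for Irf7, -0.26 for Dhx58, -0.0901 for Isg15, -0.15 for Usp18, -0.24 for Oasl2 and -0.26 for Rsad2. With the matrix values, bleomycin lung had 3 genes higher and 0 lower, Dhx58 at 0.51 and Ifit3 at 0.20, UUO-mouse lung gave -0.055 for Irf7, -0.15 for Dhx58, -0.0271 for Oasl2 and -0.0752 for Rsad2, Rsad2 was 0.17 in healthy kidney against lung, and 4 genes kept the bleomycin minus UUO kidney difference. As means of probes, Ifit3 was 0.21 in bleomycin lung, and Dhx58 -0.0171 and Usp18 -0.31 in UUO-mouse lung. Array weights gave 1 gene higher in bleomycin lung and 2924 genes of all in UUO-mouse lung. With array 2 alone for UUO-mouse lung 2, Rsad2 was -0.0245 there. Without healthy lung 3 and UUO-mouse lung 1, 2 genes were lower in bleomycin lung, Dhx58 was 0.0034 there, Rsad2 was -0.34 in the UUO kidney minus lung difference, and 344 of all genes passed in UUO-mouse lung. Second probes, tried after seeing the data, gave for Ifit3 0.77 in bleomycin lung, -0.29 in UUO kidney and 1.06 in their difference, for Usp18 -0.81 in UUO-mouse lung and 0.61 in the bleomycin minus UUO kidney difference, and 0.11 for Oasl2 in bleomycin lung, and the third Dhx58 probe -0.53 in UUO-mouse lung. Leaving out 1 sample at a time gave 0 to 1 gene higher and 0 to 1 lower in bleomycin lung, 5 to 8 in the bleomycin minus UUO kidney difference, and 309 to 1270 of all genes in UUO-mouse lung. Ranges that cross 0 were -0.19 to 0.0033 for Dhx58, -0.59 to 0.0253 for Ifit3 and -0.0187 to 0.35 for Usp18 in bleomycin lung, -0.31 to 0.71 for Rsad2 in UUO-mouse lung, -0.007 to 1.02 for Rsad2 in UUO kidney, and -0.0483 to 0.72 for Bst2 and -0.20 to 0.94 for Rsad2 in the UUO kidney minus lung difference. Among named list genes Ifna6 turned to -0.0514 in healthy kidney against lung with median scaling, Irf3 to 0.0189 in bleomycin lung with the matrix, and as means of probes Ifngr2 to 0.36 and Pias4 to 0.0149 in bleomycin lung, Ifitm1 to 0.29 in UUO-mouse lung and Ptpn11 to -0.0297 in UUO kidney. With the replicate number as a block, 6 genes rose in UUO kidney, 0 and 0 passed in UUO-mouse lung and 1 fell in bleomycin lung. The numbers mark no shared mouse outside the pairs of organs, and not in all of those pairs. Healthy lung 1 shares its mouse with healthy kidney 2, and healthy lung 2 with healthy kidney 1. Pairing organs by mouse added Bst2 to healthy kidney against lung, 7 in all.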
